A study of Mus musculus with 12 samples.

Results

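Tissue macrophages are the resident phagocytes of nearly every organ, and 10 genes that are widely used to follow them were compared here in the fetal mouse skull. The genes are Adgre1, Ptprc, Mrc1, Cd163, Cd68, C1qa, C1qb, C1qc, Cd14 and Lyz2. They were taken by name, and each matched 1 of the 39179 mouse Ensembl identifiers in the count files. RNA was sequenced from whole calvariae (the roof of the skull) of C57BL/6 embryos at embryonic day 17.5. There were 4 groups of 3 libraries each: wild-type (WT) with MS-275, WT with vehicle, Runx2+/- with MS-275 and Runx2+/- with vehicle, each agent having been given to the dam. MS-275 (entinostat) is an inhibitor of class I histone deacetylases, and Runx2 is the transcription factor required to form osteoblasts. Dams from matings set up at 8 weeks of age received MS-275 into the peritoneum at 10 mg/kg on days 14.5 and 16.5 post coitum, so the embryos were exposed through the mother. The labels do not say which part of Runx2 is missing in the heterozygotes. Nor do they tell if replicates were different embryos or litters, so p-values measure only the spread between these libraries, which may be technical.

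Macrophages settle in fetal tissues from yolk sac and fetal liver precursors, clear dead cells and debris, and multiply locally under colony-stimulating factor 1. In the skull they lie in the marrow spaces, periosteum, sutures, dura and skin, and the same lineage, given the ligand RANKL, fuses into the osteoclasts that resorb bone. Their lineage factor PU.1, encoded by Spi1, is shared with other myeloid cells. None of the 10 genes belongs to macrophages alone: Ptprc is made by all leukocytes, Cd68 is strong in osteoclasts, and Lyz2 is also made by monocytes and neutrophils.

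Counts assigned to genes numbered 13307456 to 19399760 per library. Values below are CPM, a gene's counts relative to the total of its library, scaled by edgeR's trimmed mean of M values (TMM), whose factors were 0.598 to 0.820 in 5 of the MS-275 libraries and 1.18 to 1.33 in the other 7 libraries. Replicate 3 of Runx2+/- MS-275 was the MS-275 library among those 7. Its epidermis genes summed to 1827 CPM, against 35.5 to 48.0 CPM in the other 5 MS-275 libraries and 1267 to 4185 CPM in the 6 vehicle libraries. Replicate 3 of each vehicle group also stood apart, with lens genes at 80.2 CPM (WT) and 59.5 CPM (Runx2+/-), against 453 to 588 CPM in the other vehicle libraries. Mitochondrially encoded genes held 12.7% to 24.2% of counts in those 5 MS-275 libraries, 9.48% in replicate 3 of Runx2+/- MS-275 and 4.32% to 5.52% in the vehicle libraries. Runx2 itself stood at 34.1 to 93.5 CPM in Runx2+/- MS-275 against 88.2 to 131 CPM in WT MS-275, and at 32.8 to 65.3 CPM in Runx2+/- vehicle against 42.4 to 46.1 CPM in WT vehicle. Both pairs overlapped, so the genotype is given as labelled. Replicate 3 of Runx2+/- MS-275 is likewise used as labelled although its epidermis genes lay within the range of the vehicle libraries; whether that label is right was not tested, and every mean, fold change and interaction of Runx2+/- MS-275 depends on it.

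The first comparison asks what the drug did to macrophage transcripts in WT calvariae. All 10 genes stood higher in every WT MS-275 library than in every WT vehicle library, by 1.80-fold for Lyz2, which encodes lysozyme M, to 4.57-fold for Mrc1, which encodes the mannose receptor CD206. Their median log2 fold change was 1.65, while the median of all 17967 genes tested was −0.13. Such separation without overlap was common here, since 27.3% of all genes tested were higher in that way. After Benjamini-Hochberg adjustment over all genes by edgeR's quasi-likelihood F test, with a threshold of 0.05, 3 of the 10 rose: Cd68, Ptprc and Cd14. For comparison, 9.67% of all genes were called higher and 9.33% lower. The other 7 had adjusted p-values from 0.0542 to 0.0878, and all 10 had an unadjusted p under 0.05, as did 22.1% of all genes in the higher direction. In whole tissue, more cells of a type and more RNA per cell cannot be told apart.

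How many of the 10 passed in WT turned on single libraries. The count was 10 without WT vehicle replicate 3, with 13.9% of all genes called higher, and 10 without Runx2+/- MS-275 replicate 3, with 22.2% called higher. It was 4 without Runx2+/- MS-275 replicate 1, with 15.4% called higher, and 0 when any 1 of the other 9 libraries was left out. In 8 of those 9 fits no gene at all was called, and without Runx2+/- vehicle replicate 3 there were 2021. Fitting the WT groups alone gave 10 of 10, with 20.9% of all genes called higher, and DESeq2 gave 9 of 10, with 18.5%, the exception being Lyz2. Limma-voom called 0 of the 10 and 1 gene in all, and edgeR called 0 of the 10 and no other gene with the replicate number as a block or with no low-count filter. With replicate 3 of both vehicle groups and of Runx2+/- MS-275 all left out, 10 passed, with 28.5% called higher. The scaling of libraries changed the count too. With library size alone in place of TMM, the all-gene median moved to −0.95 (log2) and that of the 10 genes to 0.85, Lyz2 stood at 0.00 and 0 of the 10 passed. Of all genes, 526 were then called higher and 7009 lower, where TMM gave 1738 higher and 1676 lower.

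Adgre1 (ENSMUSG00000004730) encodes the adhesion receptor F4/80, the standard surface marker of mouse macrophages. It lies on chromosome 17, from 57358691 to 57483527 on the plus strand (GENCODE M21, GRCm38, used for all gene positions here). It had 52.5, 61.2 and 62.4 CPM in WT MS-275, against 10.2, 9.92 and 25.0 CPM in WT vehicle. In Runx2+/- MS-275 it had 72.3, 63.8 and 8.05 CPM, against 12.5, 8.87 and 21.5 CPM in Runx2+/- vehicle. The 5 MS-275 libraries other than replicate 3 of Runx2+/- MS-275 lay above all 6 vehicle libraries, and that replicate was the lowest of the 12. The log2 fold change was 1.96 (SE 0.68, 95% interval 0.46 to 3.47, edgeR adjusted p = 0.0587) in WT and 1.75 (SE 0.68, 95% interval 0.25 to 3.25, edgeR adjusted p = 0.199) in Runx2+/-.

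Ptprc (ENSMUSG00000026395; chromosome 1, 138062861 to 138175708, minus strand) encodes the phosphatase CD45, carried by all leukocytes. A further annotated transcript, A130071D04Rik, overlaps it on the same strand. Ptprc had 25.6, 30.0 and 25.9 CPM in WT MS-275, against 8.46, 7.61 and 16.0 CPM in WT vehicle. The Runx2+/- MS-275 libraries had 23.8, 25.0 and 8.10 CPM, against 8.83, 7.75 and 11.7 CPM in Runx2+/- vehicle. The WT MS-275 libraries were close together and lay above those of every other group. Its log2 fold change was 1.34 (SE 0.42, 95% interval 0.42 to 2.27, edgeR adjusted p = 0.0482) in WT, and Runx2+/- gave 1.00 (SE 0.41, 95% interval 0.09 to 1.92, edgeR adjusted p = 0.213).

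Mrc1 (ENSMUSG00000026712; chromosome 2, 14229392 to 14332057, plus strand) encodes an endocytic lectin that takes up mannose-bearing glycoproteins and collagen fragments. It had 340.0, 409 and 388 CPM in WT MS-275, against 60.3, 51.3 and 137 CPM in WT vehicle. It had 588, 420.1 and 50.4 CPM in Runx2+/- MS-275, against 78.8, 56.7 and 139.6 CPM in Runx2+/- vehicle. Of the 10 genes, Mrc1 had the largest fold change in each genotype, and replicates 1 and 2 of Runx2+/- MS-275 were higher than any WT library. The log2 fold change was 2.19 (SE 0.73, 95% interval 0.58 to 3.80, edgeR adjusted p = 0.0541) in WT and 1.94 (SE 0.72, 95% interval 0.35 to 3.54, edgeR adjusted p = 0.192) in Runx2+/-.

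Cd163 (ENSMUSG00000008845; chromosome 6, 124304656 to 124330527, plus strand) encodes the scavenger receptor for haemoglobin bound to haptoglobin. It had 33.2, 32.9 and 22.2 CPM in WT MS-275, against 6.26, 6.75 and 15.5 CPM in WT vehicle. Values in Runx2+/- MS-275 were 26.4, 30.1 and 5.31 CPM, against 8.05, 6.85 and 15.1 CPM in Runx2+/- vehicle. The log2 fold change was 1.63 (SE 0.60, 95% interval 0.31 to 2.95, edgeR adjusted p = 0.0651) in WT and 1.04 (SE 0.59, 95% interval −0.26 to 2.35, edgeR adjusted p = 0.330) in Runx2+/-. The WT groups did not overlap. The interval in Runx2+/- takes in 0, and replicate 3 of Runx2+/- MS-275 was the lowest of the 12 libraries.

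Cd68 (ENSMUSG00000018774; chromosome 11, 69664213 to 69666153, minus strand) encodes macrosialin, a glycoprotein of lysosome membranes. It had 45.7, 43.6 and 26.6 CPM in WT MS-275, against 9.69, 10.3 and 19.5 CPM in WT vehicle. In Runx2+/- MS-275 it had 19.7, 20.5 and 9.53 CPM, against 15.0, 6.03 and 11.4 CPM in Runx2+/- vehicle. Replicates 1 and 2 of Runx2+/- MS-275 stood below all WT MS-275 libraries and little above the highest vehicle library. Its log2 fold change was 1.55 (SE 0.43, 95% interval 0.60 to 2.50, edgeR adjusted p = 0.0436) in WT, the smallest p of the 10. Runx2+/- gave 0.61 (SE 0.42, 95% interval −0.32 to 1.55, edgeR adjusted p = 0.421), the smallest fold change of the 10, and it was −0.01 with library size scaling.

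C1qa, C1qb and C1qc encode the chains of C1q, the recognition molecule that starts the classical complement pathway and that tissue macrophages make locally. They lie side by side on chromosome 4, all on the minus strand: C1qb (ENSMUSG00000036905) from 136880129 to 136886187, C1qc (ENSMUSG00000036896) from 136889804 to 136893065 and C1qa (ENSMUSG00000036887) from 136895917 to 136898803. C1qa had 69.1, 72.5 and 66.5 CPM in WT MS-275, against 14.4, 13.4 and 40.1 CPM in WT vehicle. The Runx2+/- MS-275 libraries had 83.5, 66.3 and 10.4 CPM, against 16.9, 11.0 and 29.5 CPM in Runx2+/- vehicle. C1qb had 102, 109 and 113 CPM in WT MS-275, against 18.4, 18.0 and 59.3 CPM in WT vehicle. Values in Runx2+/- MS-275 were 127, 101 and 17.1 CPM, against 25.0, 15.4 and 37.9 CPM in Runx2+/- vehicle. C1qc had 86.7, 78.3 and 86.0 CPM in WT MS-275, against 16.2, 13.6 and 48.2 CPM in WT vehicle. The Runx2+/- MS-275 libraries had 101, 85.8 and 15.2 CPM, against 21.6, 13.5 and 33.0 CPM in Runx2+/- vehicle. The 3 WT MS-275 libraries were tightly grouped for each chain, whereas vehicle replicate 3 was the highest of its group in both genotypes. In WT the log2 fold change was 1.62 (SE 0.68, 95% interval 0.12 to 3.11, edgeR adjusted p = 0.0878) for C1qa, 1.76 (SE 0.68, 95% interval 0.26 to 3.26, edgeR adjusted p = 0.0730) for C1qb and 1.69 (SE 0.66, 95% interval 0.22 to 3.15, edgeR adjusted p = 0.0760) for C1qc. In Runx2+/- it was 1.48 for C1qa, 1.65 for C1qb and 1.57 for C1qc, with edgeR adjusted p-values of 0.241, 0.212 and 0.218 in that order.

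Cd14 (ENSMUSG00000051439) encodes the receptor that hands bacterial lipopolysaccharide to TLR4. It was the lowest of the 10 genes, on 21 to 58 counts per library. Cd14 had 3.71, 3.68 and 5.00 CPM in WT MS-275, against 0.877, 1.21 and 1.83 CPM in WT vehicle. Values in Runx2+/- MS-275 were 4.74, 2.79 and 1.04 CPM, against 1.06, 0.904 and 1.38 CPM in Runx2+/- vehicle. WT groups did not overlap, and replicate 3 of Runx2+/- MS-275 lay among the vehicle libraries. The log2 fold change was 1.66 (SE 0.52, 95% interval 0.52 to 2.80, edgeR adjusted p = 0.0487) in WT and 1.34 (SE 0.52, 95% interval 0.20 to 2.48, edgeR adjusted p = 0.199) in Runx2+/-.

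Lyz2 (ENSMUSG00000069516; chromosome 10, 117277331 to 117282321, minus strand) encodes lysozyme M, which cuts bacterial cell walls. Its neighbour Lyz1 is a near-identical copy, so the counting could have split reads between them; Lyz1 held 1 to 17 counts per library, against 953 to 1956 for Lyz2. Lyz2 had 106, 118 and 168 CPM in WT MS-275, against 65.6, 55.0 and 96.7 CPM in WT vehicle. It had 178, 134 and 66.0 CPM in Runx2+/- MS-275, against 59.7, 54.6 and 55.6 CPM in Runx2+/- vehicle. The Runx2+/- groups did not overlap, since even the low MS-275 library exceeded the 3 vehicle ones, but the WT groups were close, with 106 CPM as the lowest MS-275 value and 96.7 CPM as the highest vehicle value. The log2 fold change was 0.85 (SE 0.34, 95% interval 0.09 to 1.60, edgeR adjusted p = 0.0805) in WT and 1.16 (SE 0.34, 95% interval 0.39 to 1.92, edgeR adjusted p = 0.181) in Runx2+/-.

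**Figure D1:**
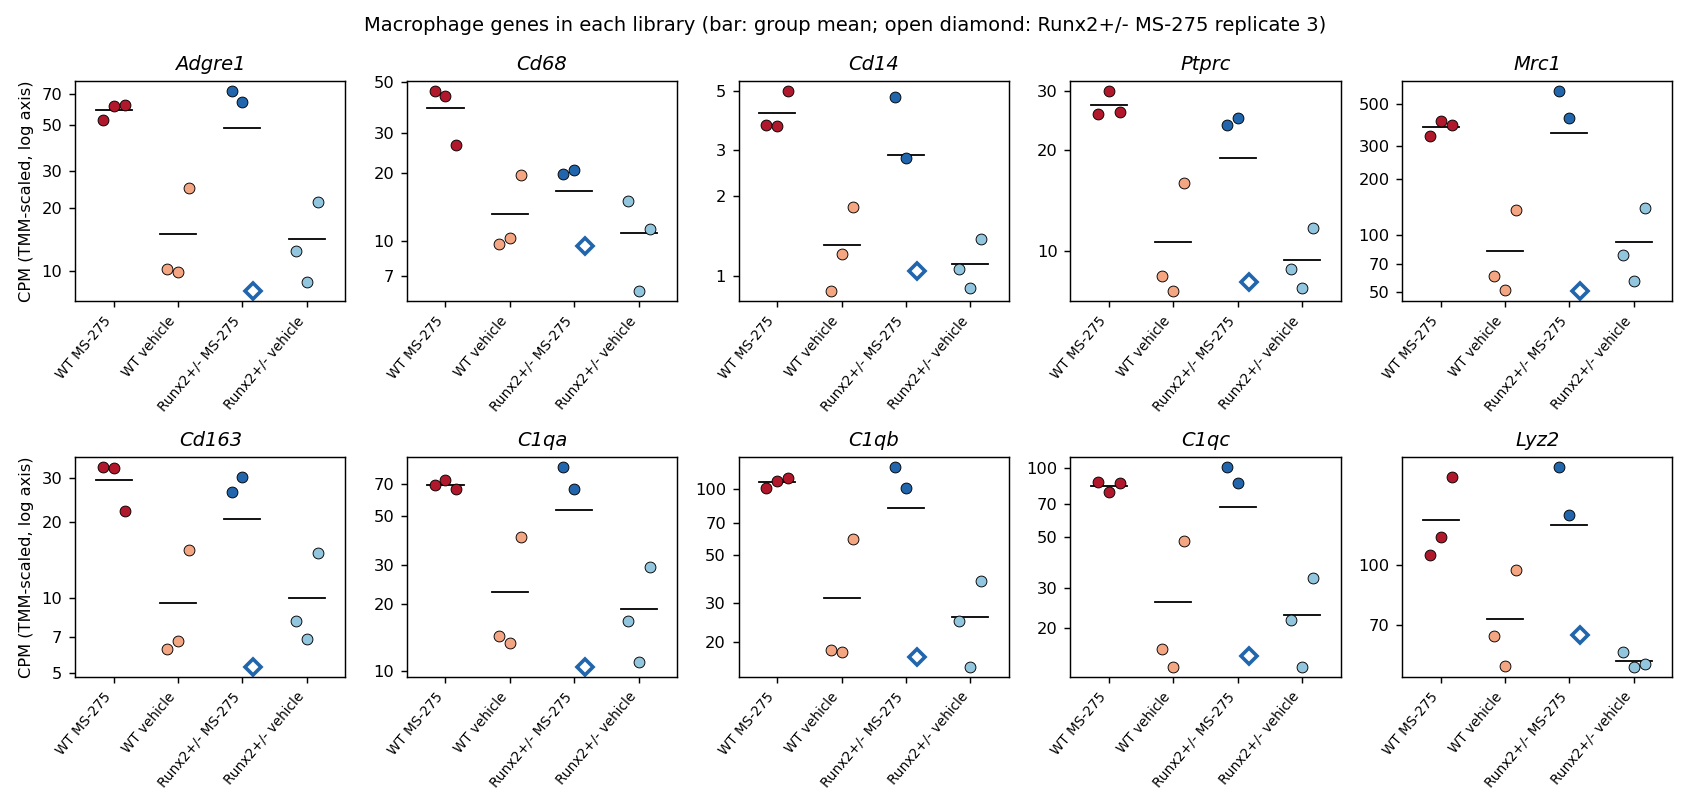
CPM of each macrophage gene (TMM-scaled, log axis) in the 12 libraries, 1 panel per gene; points are libraries, bars are group means, and the open diamond is replicate 3 of Runx2+/- MS-275. In each panel the WT MS-275 points lie above the WT vehicle points, while the open diamond lies among or below the vehicle points, except that for Lyz2 it is above those of Runx2+/- vehicle.

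The second comparison asks the same of Runx2+/- embryos. The log2 fold changes of the 10 genes ran from 0.61 (Cd68) to 1.94 (Mrc1), with a median of 1.41 against −0.04 for all genes. No member passed the edgeR threshold, and neither did any of the 17967 genes, so the background share is 0%. At an unadjusted p under 0.05 there were 7 of the 10, against 13.9% of all genes in the higher direction; limma-voom called 0 of the 10 and DESeq2 called 1, Lyz2, against 4.52% of all genes called higher. DESeq2 gave no adjusted p for Cd14. With library size scaling in edgeR the median of the 10 was 0.66, against −0.48 for all genes, and 9 lay above 0. In that fit 1 of the 10 had an unadjusted p under 0.05, against 2918 of 17967 genes in either direction. Lyz2 was also the only member whose groups did not overlap, against 6.33% of all genes.

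These counts changed without replicate 3 of Runx2+/- MS-275, which was the lowest library of its group for all 10 genes. In its absence, all 10 genes were higher in both remaining MS-275 libraries than in the 3 vehicle libraries, as were 30.3% of all genes. By edgeR, 9 of the 10 were then called higher, against 18.5% of all genes, with a median log2 fold change of 1.86. Mrc1 had 2.46 (SE 0.46, edgeR adjusted p = 0.00614), Adgre1 2.25 (SE 0.44, edgeR adjusted p = 0.00687) and Lyz2 1.46 (SE 0.26, edgeR adjusted p = 0.00562) in that fit. Cd68 was the exception, at 0.90 (SE 0.41, edgeR adjusted p = 0.113). With any other 1 library left out, 0 of the 10 and 0 genes in all passed by edgeR. Without replicate 1 of Runx2+/- MS-275 the median was 0.91, and 1 of the 10 had an unadjusted p under 0.05, against 1335 of 18357 genes in either direction.

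**Figure D2:**
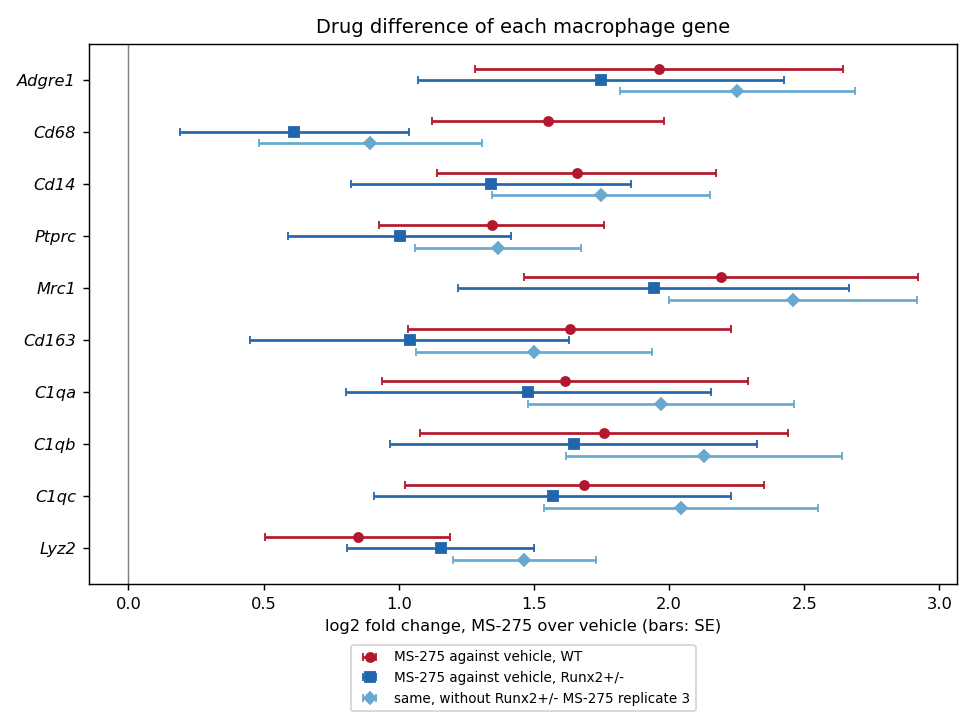
Log2 fold change of MS-275 over vehicle for each macrophage gene in WT, in Runx2+/-, and in Runx2+/- without replicate 3 of the MS-275 group (points, with bars of 1 SE). The WT values run from 0.85 for Lyz2 to 2.19 for Mrc1, and Cd68 has the lowest Runx2+/- value in both fits.

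Between genotypes, none of the 10 genes passed with vehicle. With vehicle, Runx2+/- over WT, log2 fold changes ran from −0.35 (Lyz2) to 0.15 (Mrc1), with SEs of 0.34 to 0.70. The 95% intervals are wide: that of Mrc1 ran from −1.40 to 1.69 and that of Lyz2 from −1.11 to 0.40. None of the 10 passed by edgeR, DESeq2 or limma-voom, none had an unadjusted p under 0.05, and 0% of all genes were called. Same-numbered vehicle libraries deviated together, but WT replicate 1 was more like Runx2+/- replicate 2 (r = 0.679) than Runx2+/- replicate 1 (r = 0.220). Pairing of replicates 1 and 2 by number was therefore assumed. With the vehicle groups alone and the replicate number as a block the SEs were 0.105 to 0.33. In that fit Mrc1 had 0.18 (SE 0.105), Lyz2 −0.32 (SE 0.17) and C1qa −0.17 (SE 0.17), each with an edgeR adjusted p = 0.918, and the other 7 were smaller than their SEs. Mrc1 was higher and Lyz2 lower in the Runx2+/- library of all 3 same-numbered pairs, though Lyz2 in the pair of replicates 2 was 54.6 CPM in Runx2+/- against 55.0 CPM in WT. Every other member changed sign between pairs. A shared sign over 3 pairs can arise without a genotype difference, and its share over all genes was not counted. No member separated the groups, against 2.69% of all genes higher and 2.09% lower without overlap. The sign of these small differences turned on single libraries. Without WT vehicle replicate 3, 9 of the 10 lay above 0, with a median of 0.48. Without Runx2+/- vehicle replicate 2, 6 lay above 0, and without Runx2+/- vehicle replicate 1 there were 3. Without WT vehicle replicate 1, WT vehicle replicate 2 or Runx2+/- vehicle replicate 3, all 10 lay below 0, where all libraries gave 8.

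With MS-275, all 10 genes had a negative log2 fold change, Runx2+/- over WT, from −1.22 for Cd68 to −0.05 for Lyz2, and none passed by edgeR, DESeq2 or limma-voom, where edgeR called 0% of all genes. Cd68, at −1.22 (SE 0.43, 95% interval −2.17 to −0.28, edgeR adjusted p = 0.265), was the only one with an unadjusted p under 0.05. Lyz2 turned to 0.16 with library size scaling. Cd68 and Ptprc were lower in every Runx2+/- MS-275 library than in every WT MS-275 library, as were 7.52% of all genes. For Ptprc the log2 fold change was −0.52 (SE 0.41, 95% interval −1.43 to 0.39, edgeR adjusted p = 0.533). Without replicate 3 of Runx2+/- MS-275 the signs divided. Of the 10 genes, 6 then lay above 0, with Mrc1 at 0.41 (SE 0.45, edgeR adjusted p = 0.938) and Adgre1 at 0.21 (SE 0.43, edgeR adjusted p = 0.994); both were higher in each of the 2 remaining Runx2+/- MS-275 libraries than in all WT MS-275 libraries, as were 13.4% of all genes. Cd68 stayed below 0 at −0.94 (SE 0.43, edgeR adjusted p = 0.655), and it and Ptprc were still lower without overlap, as were 12.4% of all genes.

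The interaction is the log2 fold change with MS-275 in heterozygotes less that in wild types, and it tests whether the genotypes responded unequally. It ran from −0.94 (SE 0.60, 95% interval −2.26 to 0.38, edgeR adjusted p = 0.873) for Cd68 to 0.31 (SE 0.48, 95% interval −0.76 to 1.37, edgeR adjusted p = 0.911) for Lyz2. None of the 10 passed by edgeR, DESeq2 or limma-voom, none had an unadjusted p under 0.05, and edgeR called 0% of all genes. Without replicate 3 of Runx2+/- MS-275, 8 of the 10 lay above 0, and 1 did with all libraries. Without WT vehicle replicate 2 or Runx2+/- vehicle replicate 3 there were 6 above 0, without WT vehicle replicate 1 there were 5, and without Runx2+/- MS-275 replicate 1 there were 0. Drug-treated heterozygotes were also set against untreated WT. Those log2 fold changes ran from 0.33 (Cd68) to 2.09 (Mrc1), and that of Cd68 turned to −0.26 with library size scaling. By edgeR 0 of the 10 and 0% of all genes passed, with 3 of the 10 at an unadjusted p under 0.05, as were 14.8% of all genes in the higher direction. Limma-voom called 0 of the 10, and DESeq2 called 1, against 6.96% of all genes called higher. Without replicate 3 of Runx2+/- MS-275 edgeR called 9 of the 10, against 19.4% of all genes called higher. These comparisons share their libraries with the ones above.

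Levels of different genes were set beside each other per kilobase of their longest coding transcript. In WT MS-275, C1qb averaged 99.2 ± 5.18 CPM per kilobase and Lyz2 99.1 ± 24.9 (mean ± SD, n = 3, here and below), which did not differ beyond their spread. Mrc1 (70.5 ± 6.59), C1qc (69.5 ± 3.84) and C1qa (66.7 ± 2.87) came next and likewise lay within their spread. Cd68 (31.4 ± 8.54), Adgre1 (18.1 ± 1.66), Cd163 (6.62 ± 1.42), Ptprc (5.35 ± 0.482) and Cd14 (2.52 ± 0.459) followed. In WT vehicle, Lyz2 led at 55.0 ± 16.5 CPM per kilobase. There C1qb (29.3 ± 21.8), C1qa (21.8 ± 14.6), C1qc (21.6 ± 16.0) and Mrc1 (15.4 ± 8.78) overlapped one another across libraries. Within each WT vehicle library, however, C1qb was the highest and Mrc1 the lowest of these genes. The means of Cd68, Adgre1, Cd163, Ptprc and Cd14 had the same order as with MS-275, with Cd163 and Ptprc within their spread in both groups. In Runx2+/- MS-275, Lyz2 was first at 95.9 ± 43.0 CPM per kilobase and Cd14 last at 1.74 ± 1.12, with neighbours inside the wide spread between the libraries of that group. Within each of those libraries Lyz2 was still the highest and Cd14 the lowest. In Runx2+/- vehicle, Lyz2 was first at 43.0 ± 2.04 and Cd14 last at 0.679 ± 0.146. Cd68 stood above Adgre1 in all groups except Runx2+/- MS-275, where Adgre1 had 14.8 ± 10.8 and Cd68 13.5 ± 4.97 CPM per kilobase.

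The make-up of the macrophage signal differed between the WT groups as well as its size, while in Runx2+/- the shares below overlapped between MS-275 and vehicle. Ratios within a library do not depend on how libraries were scaled. Of the summed CPM of the 10 genes, Mrc1 took 39.3%, 42.7% and 40.3% in WT MS-275, against 28.7%, 27.4% and 29.9% in WT vehicle. Lyz2 took 12.3%, 12.3% and 17.4% in WT MS-275, against 31.2%, 29.4% and 21.1% in WT vehicle. Mrc1 thus held a larger share and Lyz2 a smaller one in every WT MS-275 library than in any WT vehicle library. In Runx2+/- MS-275 the share of Mrc1 was 48.0%, 44.2% and 26.4%, against 31.9%, 31.2% and 39.1% in Runx2+/- vehicle, and that of Lyz2 was 14.6%, 14.1% and 34.5%, against 24.1%, 30.1% and 15.6%. Replicate 3 of Runx2+/- MS-275 therefore had the smallest Mrc1 share and the largest Lyz2 share of the 12 libraries, and replicate 3 of Runx2+/- vehicle had an Mrc1 share near those of WT MS-275. These shares are given as a description, without a test.

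**Figure D3:**
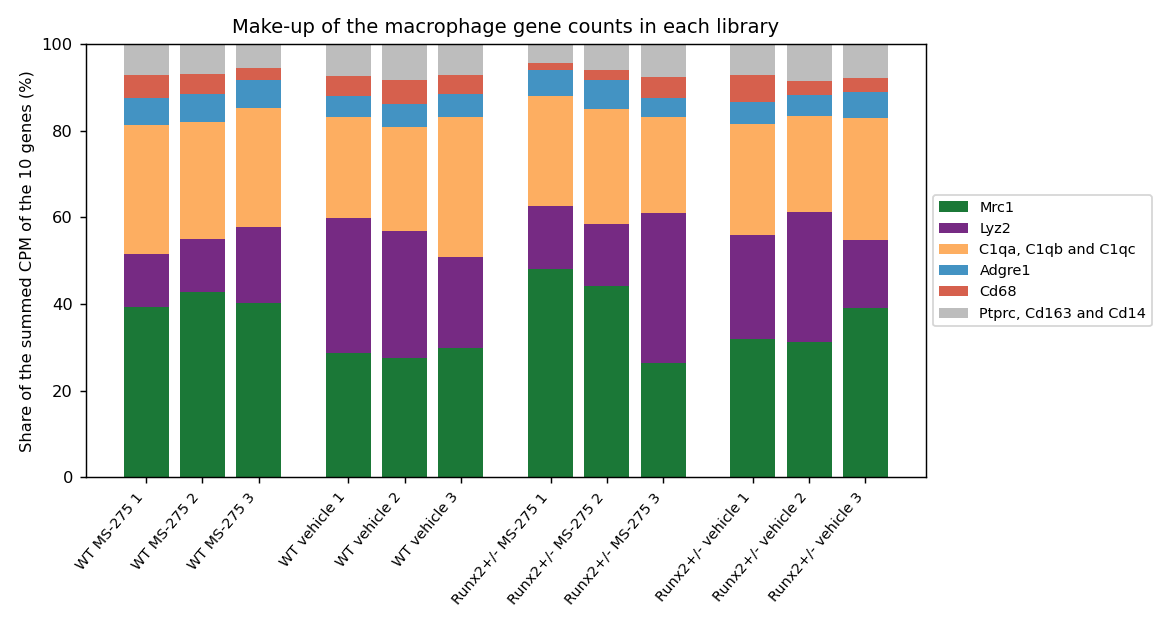
Share of the summed CPM of the 10 macrophage genes taken by each gene or group of genes, in per cent, 1 stacked bar per library. Mrc1 takes 39.3% to 42.7% in WT MS-275, against 27.4% to 29.9% in WT vehicle, and Lyz2 takes 34.5% in replicate 3 of Runx2+/- MS-275.

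Counts of pairs of members showed which kept step. The 3 C1q chains kept a near-constant ratio: C1qb over C1qc was 1.18, 1.39 and 1.31 in WT MS-275, against 1.13, 1.33 and 1.23 in WT vehicle. It was 1.25, 1.18 and 1.13 in Runx2+/- MS-275, against 1.16, 1.14 and 1.15 in Runx2+/- vehicle. C1qa over C1qc lay between 0.690 and 0.987 in all 12 libraries. Mrc1 did not keep step with the leukocyte gene Ptprc. Its ratio to Ptprc was 13.3, 13.6 and 15.0 in WT MS-275, against 7.12, 6.72 and 8.58 in WT vehicle, and 24.7, 16.8 and 6.21 in Runx2+/- MS-275, against 8.91, 7.30 and 11.9 in Runx2+/- vehicle. The highest was in replicate 1 of Runx2+/- MS-275 and the lowest in replicate 3 of that group. The ratio of Cd68 to Adgre1 was 0.870, 0.714 and 0.426 in WT MS-275, against 0.949, 1.04 and 0.779 in WT vehicle. It was 0.273, 0.322 and 1.18 in Runx2+/- MS-275, against 1.20, 0.680 and 0.529 in Runx2+/- vehicle. Replicates 1 and 2 of Runx2+/- MS-275 had the lowest values of the 12, and replicate 3 of that group was among the highest.

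Among replicates of the same group the members varied together. For each gene, the deviations of log2(CPM + 1) from its group means were correlated with the mean deviation of the other 9 genes over the 12 libraries. Pearson's r was 0.998 for C1qa, 0.996 for C1qb, 0.991 for C1qc and for Adgre1, 0.987 for Mrc1 and 0.982 for Ptprc. It was 0.952 for Cd163, 0.891 for Cd14, 0.845 for Lyz2 and 0.752 for Cd68. The libraries share composition and replicate 3 of Runx2+/- MS-275 carries the largest deviations, from −2.18 (Mrc1) to −0.67 (Cd68) on the log2 scale. Without that library r was 0.994 for C1qa and 0.970 for Mrc1 but 0.574 for Lyz2, 0.658 for Cd68 and 0.665 for Cd14. In the vehicle groups, replicate 3 was the highest for all 10 genes in WT and for 8 of the 10 in Runx2+/-, where Cd68 and Lyz2 were highest in replicate 1. Of 12642 other genes with a mean of at least 5 CPM, those most like the mean of the 10 were Slc27a6 and Capns1 (r = 0.995 each), Mesd and Fcrls (0.993 each) and Arfgap3 (0.992). Without that library their r was 0.977 to 0.994. The measure is a description, and many genes of these libraries move in the same way.

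Because the members moved together, their promoters are shown. RefSeq windows (GRCm38.p6) from 250 bases before to 50 bases after a start site were read for 7 of the 10 genes. No window was read for Adgre1, Cd14 or C1qa. The core GAGGAA, which PU.1 prefers, was searched on both strands. It was present in 5 of the 8 windows of these genes, since Ptprc has 2 and the core is in 1 of them, while 28.3% of all 32851 windows hold it. The windows with the core belong to Ptprc, Mrc1, C1qb, C1qc and Cd68, and those of Cd163 and Lyz2 lack it. The 4 windows below, from genes of the scavenger receptor, C1q and lysosome groups, are printed 5′ to 3′ on the strand of the gene, with each core, or its reverse complement, in capitals. They are Mrc1 at chr2:14229164-14229463 (plus strand), C1qb at chr4:136886151-136886450, C1qc at chr4:136892865-136893164 and Cd68 at chr11:69666121-69666420 (minus strand for all of these 3).
Mrc1: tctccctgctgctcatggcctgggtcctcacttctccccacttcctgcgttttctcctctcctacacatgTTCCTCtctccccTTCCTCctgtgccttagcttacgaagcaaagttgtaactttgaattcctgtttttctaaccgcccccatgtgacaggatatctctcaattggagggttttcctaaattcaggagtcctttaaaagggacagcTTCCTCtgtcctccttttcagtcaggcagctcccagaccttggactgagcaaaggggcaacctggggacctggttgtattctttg
C1qb: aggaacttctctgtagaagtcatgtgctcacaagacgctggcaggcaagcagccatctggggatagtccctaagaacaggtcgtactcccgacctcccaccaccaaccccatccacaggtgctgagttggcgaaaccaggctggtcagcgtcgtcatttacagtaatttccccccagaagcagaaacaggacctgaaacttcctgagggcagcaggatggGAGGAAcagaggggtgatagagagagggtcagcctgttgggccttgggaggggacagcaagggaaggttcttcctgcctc
C1qc: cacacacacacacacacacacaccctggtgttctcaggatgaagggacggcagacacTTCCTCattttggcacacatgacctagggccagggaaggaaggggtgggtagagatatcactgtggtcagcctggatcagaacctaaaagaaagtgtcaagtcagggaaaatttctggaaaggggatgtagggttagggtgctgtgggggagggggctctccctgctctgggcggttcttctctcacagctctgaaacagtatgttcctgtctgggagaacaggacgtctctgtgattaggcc
Cd68: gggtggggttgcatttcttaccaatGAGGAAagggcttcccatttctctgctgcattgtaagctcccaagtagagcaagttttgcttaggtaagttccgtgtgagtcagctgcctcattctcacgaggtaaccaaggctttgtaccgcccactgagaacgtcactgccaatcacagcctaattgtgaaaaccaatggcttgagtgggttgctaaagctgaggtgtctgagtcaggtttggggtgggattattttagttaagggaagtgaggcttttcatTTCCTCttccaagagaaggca
In Mrc1 the core begins at −180, −167 and −35 relative to the start, in C1qb at −30, in C1qc at −193 and in Cd68 at −225 and 30. A match is a description of the letters in this window and not a binding site.

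Other genes of resident macrophages gave a less uniform picture. In WT, of 24 tested of a list of 25, 21 had a positive log2 fold change, with a median of 1.08. By edgeR 0 passed, against 9.67% of all genes called higher. At an unadjusted p under 0.05 there were 10, against 8512 of 17967 genes in either direction. With library size scaling 16 lay above 0, with a median of 0.31, and 0 were called higher and 2 lower, against 526 higher and 7009 lower of all genes. DESeq2 called 8 higher, against 18.5% of all genes, and 1 lower, against 3897 of 17967 genes, and limma-voom called 0. Without replicate 3 of Runx2+/- MS-275 edgeR called 13 higher, against 22.2% of all genes, and 1 lower, against 4440 of 18216 genes. Their summed level was 1442 to 1459.9 CPM in WT MS-275, against 461 to 1079 CPM in WT vehicle. In Runx2+/-, 20 of the 24 lay above 0 with a median of 0.88, and edgeR called 0, as of all genes. DESeq2 there called 0 higher, against 4.52% of all genes, and 1 lower, against 408 of 17967. Limma-voom called 0, and with library size scaling 14 lay above 0, with a median of 0.16. Without replicate 3 of Runx2+/- MS-275, 22 lay above 0 in that genotype, with a median of 1.315. EdgeR then called 9 higher, against 18.5% of all genes. Msr1, a scavenger receptor for modified lipoproteins, had 2.38 (SE 0.77, edgeR adjusted p = 0.0519) in WT, and Cbr2, a carbonyl reductase, had −2.75 (SE 0.91, edgeR adjusted p = 0.0537). Csf1r, the receptor for colony-stimulating factor 1, had 178, 163 and 85.8 CPM in WT MS-275, against 45.0, 44.8 and 101 CPM in WT vehicle, and its log2 fold change was 1.16 (SE 0.54, edgeR adjusted p = 0.110). Spi1 had 19.3, 20.1 and 12.4 CPM in WT MS-275, against 3.99, 3.98 and 14.4 CPM in WT vehicle. The Runx2+/- MS-275 libraries had 5.39, 5.50 and 1.74 CPM, against 6.71, 2.54 and 6.83 CPM in Runx2+/- vehicle. In Runx2+/- MS-275 it thus stayed within the vehicle range of that genotype or below, and its log2 fold change there was −0.36 (SE 0.62, edgeR adjusted p = 0.757), or 0.03 (SE 0.61, edgeR adjusted p = 0.978) without replicate 3. Csf1r and Spi1 were named after their values were seen.

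Osteoclast genes, from the same lineage, were read beside the 10. In WT, 5 of 15 rose, against 9.67% of all genes, and 0 fell, with a median log2 fold change of 1.85. DESeq2 called 10 higher, against 18.5% of all genes, and limma-voom 0. With library size scaling 2 were called higher, against 526 of 17967 genes. In Runx2+/- 0 of 15 passed by edgeR, by DESeq2 or by limma-voom, 0 had an unadjusted p under 0.05 in edgeR, and the median was 0.06, or −0.57 with library size scaling. Without replicate 3 of the MS-275 group it was 0.32, with 1 called higher, against 18.5% of all genes. The 15 genes summed to 2313, 2575 and 2456 CPM in WT MS-275, against 389, 379 and 676 CPM in WT vehicle, and to 1168, 669.8 and 226 CPM in Runx2+/- MS-275, against 732, 228 and 356 CPM in Runx2+/- vehicle. The 10 macrophage genes summed to 864, 958 and 963 CPM in WT MS-275, against 210.3, 187 and 459 CPM in WT vehicle, and to 1225, 949.9 and 191 CPM in Runx2+/- MS-275, against 247, 182 and 357 CPM in Runx2+/- vehicle. Replicates 1 and 2 of Runx2+/- MS-275 thus had macrophage sums within or above the range of WT MS-275 but osteoclast sums below them. Ctsk, the collagen-degrading protease of osteoclasts, showed 3.22 (SE 0.88, edgeR adjusted p = 0.0434) in WT, and Tcirg1, a subunit of their proton pump, had 1.08 (SE 0.23, edgeR adjusted p = 0.0434). Calcr, the calcitonin receptor, had 1.85 (SE 0.52, edgeR adjusted p = 0.0440), and Ostm1, a partner of their chloride transporter, had 0.77 (SE 0.21, edgeR adjusted p = 0.0439), which turned to −0.09 with library size scaling. In Runx2+/- the values were 1.54 for Ctsk, 0.44 for Tcirg1, −0.41 for Calcr and 0.25 for Ostm1, none of which passed. Whether osteoclasts account for any of the Cd68 difference between the genotypes was not tested.

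**Figure D4:**
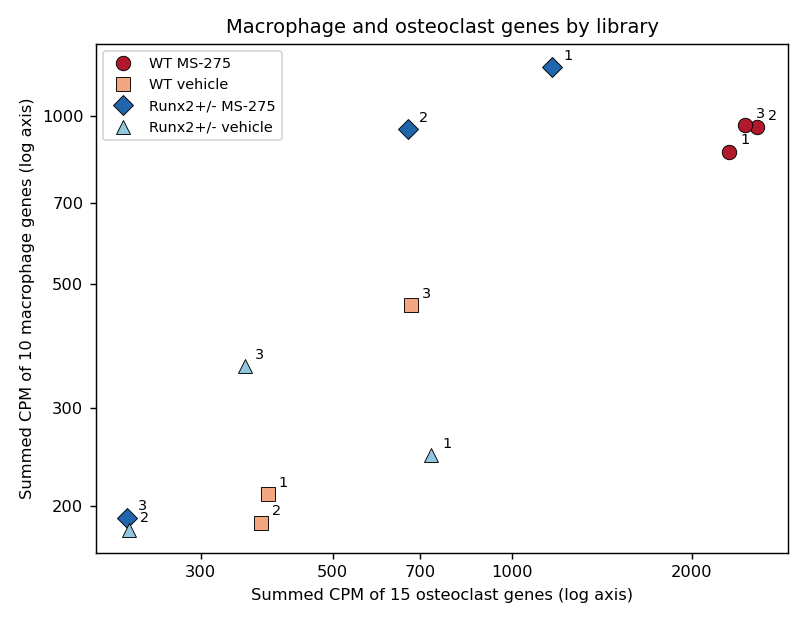
Summed CPM of the 10 macrophage genes against the summed CPM of 15 osteoclast genes, on log axes, for the 12 libraries (numbers give the replicate). The WT MS-275 libraries are high on both axes, while replicates 1 and 2 of Runx2+/- MS-275 are high for macrophage genes at osteoclast sums of 1168 and 670 CPM.

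Genes that act with the members were read from the same fit. Of 12 complement genes tested, 7 rose in WT and 0 fell, with a median log2 fold change of 1.30. Serping1, the C1 inhibitor, had 2.62 (SE 0.65, edgeR adjusted p = 0.0434), Cd59a, which blocks the membrane attack complex, 2.56 (SE 0.56, edgeR adjusted p = 0.0434) and C1ra, the protease that docks on C1q, 1.50 (SE 0.39, edgeR adjusted p = 0.0434). Of 14 genes of lipopolysaccharide recognition, in which Cd14 acts, 4 rose and 0 fell, with a median of 1.27. Tlr4, the receptor itself, had 2.35 (SE 0.68, edgeR adjusted p = 0.0451), its partner Ly96 2.08 (SE 0.65, edgeR adjusted p = 0.0492), and the adaptors Ticam2 and Tirap 1.78 (SE 0.44, edgeR adjusted p = 0.0434) and 1.10 (SE 0.34, edgeR adjusted p = 0.0478). Of 15 lysosome genes, 4 rose and 0 fell, with a median of 0.92. Among them were Lamp2, a membrane protein, at 2.08, and the proteases Ctsl and Ctss at 2.05 and 1.93. Of 9 growth factors and cytokines that act on macrophages, 1 rose and 1 fell: Tnfsf11, which encodes RANKL, at 2.49 (SE 0.67, edgeR adjusted p = 0.0434), and Il4 at −1.42 (SE 0.44, edgeR adjusted p = 0.0484). Calls in WT for these 4 lists, in the order given, were 8, 7, 8 and 2 higher with DESeq2, 4, 1, 2 and 1 higher with library size scaling, and 0 in each with limma-voom. Of all genes in WT, edgeR called 9.67% higher and DESeq2 18.5%, and library size scaling gave 526 of 17967. In Runx2+/- 0 genes of these 4 lists passed by edgeR, with medians of 0.86 for complement, 0.79 for lipopolysaccharide recognition, 0.87 for lysosome and −0.05 for the ligands. Without replicate 3 of Runx2+/- MS-275, 8 of 12, 9 of 14, 8 of 15 and 1 of 9 were called higher, in the same order, against 18.5% of all genes. At an unadjusted p under 0.05 with all libraries there were 5, 3, 7 and 2, against 3782 of 17967 genes in either direction. DESeq2 called 3, 1, 3 and 1, the last of them lower, and limma-voom 0. Of all genes, DESeq2 called 4.52% higher and 408 of 17967 lower. Other cells of the calvaria also express many of these genes.

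Markers of other blood cells were read in the same way. Monocyte and antigen-presenting genes had a median log2 fold change of 0.41 in WT, or −0.39 with library size scaling, with 0 of 11 called higher and 1 lower, the class II activator Ciita at −1.46 (SE 0.42, edgeR adjusted p = 0.0453). Of the 11, 8 lay above 0, or 3 with library size scaling. DESeq2 called 2 higher and 1 lower, and limma-voom 0. The genes of this list summed to 42.25 to 65.8 CPM in WT MS-275, against 21.2 to 43.6 CPM in WT vehicle. Of 9 neutrophil genes 0 passed by edgeR in WT (3 at an unadjusted p under 0.05; DESeq2 called 1 higher and 2 lower, limma-voom 0), with a median of −0.45, and their summed level was 40.0 to 80.7 CPM in WT MS-275, against 65.0 to 91.2 CPM in WT vehicle. Ltf, lactoferrin, had −2.60 (SE 0.96, edgeR adjusted p = 0.0662) and Mmp8, a neutrophil collagenase, 1.51 (SE 0.52, edgeR adjusted p = 0.0587). Lymphoid genes summed to 5.08 to 6.88 CPM in WT MS-275, against 3.40 to 10.8 CPM in WT vehicle, with 1 of 5 called lower, the recombinase gene Rag1 at −2.19 (SE 0.67, edgeR adjusted p = 0.0471). Mast cell genes summed to 276 to 481 CPM in WT MS-275, against 179 to 1238 CPM in WT vehicle, with 1 of 6 called lower, the stem cell factor receptor gene Kit at −1.06 (SE 0.21, edgeR adjusted p = 0.0434). The Langerhans cell gene Cd207 had no count in any MS-275 library, which allows up to 3 counts in each. Cd207 did not pass the low-count filter over the 12 libraries, so no difference in it was tested. Epcam, which those cells share with epithelium, fell by 3.96 on the log2 scale (edgeR adjusted p = 0.0427) in WT. Of 9 genes known from microglia, 3 rose in WT, among them Tmem119 at 2.26 and Olfml3 at 1.90. Osteoblasts and fibroblasts also make Tmem119 and Olfml3. Beside all these lists, edgeR called 9.67% of all genes higher and 9.33% lower in WT. DESeq2 called 18.5% higher and 3897 of 17967 genes lower. By edgeR, 8512 of the 17967 had an unadjusted p under 0.05 in either direction.

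Markers of other tissues also differed between the WT MS-275 and WT vehicle libraries, the same libraries as for the macrophage genes. What made tissue content differ was not tested. All 8 epidermis genes measured fell in WT, with a median log2 fold change of −7.09, and summed to 35.5 to 48.0 CPM in WT MS-275, against 1392 to 4185 CPM in WT vehicle. Krt10, a keratin, had −7.17 (SE 1.69, edgeR adjusted p = 0.0434). Of 6 osteoblast genes 5 rose, with sums of 44016 to 49769 CPM in WT MS-275, against 5651 to 8250.5 CPM in WT vehicle; Ibsp, bone sialoprotein, had 4.28 (SE 1.11, edgeR adjusted p = 0.0434). Of 5 neuron genes 2 fell, with sums of 24.0 to 217 CPM in WT MS-275, against 91.0 to 1100.3 CPM in WT vehicle. Of 4 lens genes and 5 muscle genes 0 passed by edgeR, with medians of −6.58 and −1.75; 3 of each had an unadjusted p under 0.05, DESeq2 called 3 of each lower, and limma-voom 0. Of 5 endothelial genes 1 rose, Emcn at 2.30. Their sums were 546 to 729.9 CPM in WT MS-275, against 238 to 347 CPM in WT vehicle. Of 6 erythroid genes 5 had a positive log2 fold change, with a median of 1.27 and 3 at an unadjusted p under 0.05. The only erythroid gene past the edgeR threshold fell, Slc4a1 at −1.62, while DESeq2 called 2 higher and 1 lower and limma-voom 0. For comparison, edgeR called 9.67% of all genes higher and 9.33% lower in WT. DESeq2 called 18.5% higher and 3897 of 17967 genes lower. By edgeR, 8512 of the 17967 had an unadjusted p under 0.05 in either direction. The erythroid genes summed to 4693 to 25912 CPM in WT MS-275, against 2325 to 5573 CPM in WT vehicle. In Runx2+/- MS-275 the epidermis genes summed to 45.2, 47.1 and 1827 CPM and the osteoblast genes to 50658, 25272 and 1668 CPM, so replicate 3 stood apart in tissue markers as in the 10 macrophage genes. The part of these shifts in the macrophage values was not tested.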

How the data were processed

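Each library has 1 deposited file of read counts, whole numbers that were not normalized, listed by mouse Ensembl gene. The authors used Trimmomatic, Bowtie2, SAMtools and HTSeq, per the submitters' processing notes; their versions, and whether strand was used in counting, are not given in the sources used here. The build named there, GRCh38.p7, is human, although the identifiers are mouse. Libraries were stranded and made from total RNA, per the labels' protocols. Values of overlapping genes and near-identical copies are uncertain. Summary entries that name no gene (23.5% to 36.8% of the reads a file lists) were left out. Symbols, found for 37607 identifiers, and positions came from GENCODE M21 (GRCm38).

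All 12 libraries entered 1 fit of 4 group means with edgeR 4.0.16 in R 4.3.3 (filterByExpr, TMM, robust quasi-likelihood F test, 8 residual degrees of freedom, common biological coefficient of variation 0.442). Tests are two-sided, and p-values were adjusted by Benjamini-Hochberg over 17967 genes, with a threshold of 0.05. An exact permutation test of 3 libraries against 3 cannot give a p below 0.1, so none was used. Alternatives were library size scaling, DESeq2 size factors, DESeq2 1.42.0, limma-voom (limma 3.58.1), no filter, mitochondrial genes left out, only the groups compared, the replicate number as a block, and leaving out each library. Chosen after seeing the data were leaving out replicate 3 of both vehicle groups and of Runx2+/- MS-275 together, and the vehicle groups alone with the block. Same-numbered vehicle libraries of the 2 genotypes deviated together (r of 0.220, 0.752 and 0.812). So did WT replicate 1 with Runx2+/- replicate 2 (r = 0.679) and WT replicate 2 with Runx2+/- replicate 1 (r = 0.272). These values set replicate 3 of both vehicle groups apart, and pairing of replicates 1 and 2 by number was assumed. The block over all 12 libraries also took in the MS-275 groups, which were not taken as paired. Depth was 13307456 to 19399760 counts per library, and a gene at 0 counts could hold up to 3, or 0.120 to 0.279 CPM, which covers counting error only.

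The macrophage genes and the 19 other gene lists were chosen with earlier results of these data known. From each list the text names up to 4 genes with the smallest p past the threshold in WT, and likewise in Runx2+/-, or up to 2 where none passed, plus the 5 genes most like the macrophage genes. Some genes that this rule would name are not reported here.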

Additional observations from a re-analysis of the deposited data

How the results depend on the processing

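For MS-275 against vehicle in WT, all libraries gave 3 macrophage genes and 3414 genes in all past the edgeR threshold. These counts were 0 and 7535 with library size scaling, 0 and 0 with no low-count filter, 0 and 0 with the replicate number as a block, 10 and 7309 with the WT groups alone, 0 and 1 with limma-voom, 9 and 7223 with DESeq2, and 10 and 10887 without the 3 libraries that stood apart, a choice made after seeing the data. DESeq2 size factors and leaving out mitochondrial genes gave 3 macrophage genes each. DESeq2, and then edgeR without those 3 libraries, called 1 and 9 macrophage genes of 1220 and 9543 genes in Runx2+/-, 1 and 9 of 2028 and 9684 for Runx2+/- MS-275 against WT vehicle, and 702 and 1 genes between genotypes with MS-275; DESeq2 called 38 genes for the interaction. The block, entered for all 12 libraries, changed no other count, and the vehicle groups alone with the block gave 0 genes too. Leaving out 1 library at a time gave 0 to 10 macrophage genes and 0 to 8480 genes in WT, 0 to 9 and 0 to 5955 in Runx2+/-, 0 to 9 and 0 to 6513 for Runx2+/- MS-275 against WT vehicle, 0 to 23 genes between genotypes with MS-275 and 0 to 1 for the interaction. Signs (log2) turned with library size scaling for 4 values: MS-275 against vehicle in WT: Ostm1 log2 fold change (−0.091), then Cd68 in Runx2+/- (−0.0068) and against WT vehicle (−0.26), and Lyz2 between genotypes with MS-275 (0.16). Without the 3 libraries they turned, with vehicle between genotypes, for Adgre1 0.092, Cd68 0.084, Ptprc 0.051, C1qa 0.013, C1qb 0.16, C1qc 0.24; with MS-275, for Adgre1 0.17, Mrc1 0.36, C1qa 0.057, C1qb 0.030, C1qc 0.11, Lyz2 0.22; and in the interaction, for Adgre1 0.074, Mrc1 0.071, C1qa 0.044. Leaving out 1 library turned the sign, with vehicle, of Adgre1 −0.50 to 0.51, Cd68 −0.60 to 0.11, Cd14 −0.45 to 0.098, Ptprc −0.37 to 0.23, Mrc1 −0.29 to 0.72, Cd163 −0.35 to 0.62, C1qa −0.70 to 0.46, C1qb −0.66 to 0.52, C1qc −0.57 to 0.61; with MS-275, of Adgre1 −0.71 to 0.21, Mrc1 −0.69 to 0.41, C1qa −0.86 to 0.11, C1qb −0.87 to 0.081, C1qc −0.73 to 0.16, Lyz2 −0.38 to 0.26; and in the interaction, of Adgre1 −0.80 to 0.29, Cd14 −0.90 to 0.091, Ptprc −0.76 to 0.025, Mrc1 −0.84 to 0.27, C1qa −0.84 to 0.35, C1qb −0.93 to 0.37, C1qc −0.92 to 0.36, Lyz2 −0.029 to 0.62. The cause of these changes was not tested. Cd14 rests on the fewest counts, 21 to 58 per library.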
